A study of Mus musculus with 6 samples.

Results

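Mitochondria hold a small genome of their own, and the proteins that copy, transcribe, decode and translate it are encoded in the nucleus, made in the cytosol and imported. Aminoacyl-tRNA synthetases of the organelle join each amino acid to its mitochondrial tRNA, modifying enzymes finish the wobble and neighbouring bases of those tRNAs, and initiation, elongation, release and recycling factors drive the mitochondrial ribosome. Mitochondrial folate enters at several of these steps, since a formyl group from folate marks the initiator methionyl-tRNA and a folate carbon enters the taurine-containing wobble base that the MTO1 and GTPBP3 enzymes build. SHMT2, the mitochondrial serine hydroxymethyltransferase, passes a carbon unit from serine to this folate pool and releases glycine.

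The 33 nuclear genes described here were taken by name from the table of 49671 genes: 16 mitochondrial tRNA synthetases (*Aars2* to *Yars2*), 3 initiation genes (*Mtif2*, *Mtif3*, *Mtfmt*), 3 elongation factors (*Tufm*, *Tsfm*, *Gfm1*), 1 release factor (*Mtrf1l*), 2 recycling factors (*Mrrf*, *Gfm2*), 5 tRNA-modifying enzymes (*Mto1*, *Gtpbp3*, *Trmu*, *Pus1*, *Trit1*) and 3 genes for transcription and upkeep of the mitochondrial genome (*Tfam*, *Polrmt*, *Twnk*). The rule used names and no measured level, but the genes were chosen with earlier results of these data known. All 33 were among the 16089 genes that carried enough counts to be tested. RNA-seq was performed on livers of 3 SHMT2 fl/fl mice, labelled WT, and 3 SHMT2 HKO mice, labelled KO. Both groups were male, were raised on the C57BL/6J background, carried the floxed *Shmt2* allele on both chromosomes and were fed AMLN, a diet with much cholesterol, fructose and fat, for 18 weeks, from week 4 of life to harvest in week 22 after a fast. The HKO mice also carried Albumin-Cre, which deletes the floxed exons in hepatocytes and leaves the other liver cells with the gene. The labels do not say what sets the replicates of a group apart beyond their numbers, so the p-values measure the spread between these 6 samples. The question is whether loss of the hepatic enzyme came with a change in the mRNAs of the machinery that its folate products serve.

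*Shmt2* itself checked the labels. Its normalised read count, in CPM (counts divided by library sizes that were adjusted by the TMM method), was 94.6, 109 and 93.9 in the fl/fl mice and 24.9, 28.3 and 19.3 in the HKO mice. The groups lay far apart, and the gene was lower in HKO livers by 2.04 on the log2 scale (SE 0.16, adjusted p = 0.000639, edgeR quasi-likelihood test). The libraries held 23090837 to 34089722 gene counts, and the 33 genes had 69 to 32475 counts in a sample. The first principal component (64.8% of the variance) separated the genotypes, and on the second (19.4%) HKO mouse 1 lay apart from HKO mice 2 and 3. Defining hepatocyte markers were abundant in all 6 livers, with summed levels of 52981 to 64280 CPM in fl/fl and 64165 to 95856 CPM in HKO mice and 2 of 8 markers higher. Cholangiocyte markers summed to 951 to 1181 CPM in fl/fl and 128 to 245 CPM in HKO livers, with 5 of 5 lower. T and NK cell markers (15.5 to 18.9 CPM in fl/fl, 3.80 to 6.92 CPM in HKO) had 4 of 5 lower. Stellate cell markers (1217 to 1301 CPM against 328 to 818 CPM) had 4 of 8 lower and *Reln* higher. Macrophage markers had 3 of 8 higher and 3 lower (240 to 318 CPM against 252 to 299 CPM), endothelial markers 2 of 6 higher (160 to 185 CPM against 227 to 266 CPM) and erythroid markers 1 of 3 higher (94.2 to 166 CPM against 196 to 222 CPM). None of 4 B cell markers passed in edgeR (4.88 to 5.90 CPM against 1.91 to 4.31 CPM, with 1 lower at an unadjusted p under 0.05 and an adjusted p under 0.25), nor did 2 tested neutrophil markers (0.941 to 2.06 CPM against 1.01 to 2.04 CPM), while *Ly6g* stayed at 3 counts or fewer in every library. The part of these marker differences in the results that follow was not tested. In bulk liver a change in the number of cells cannot be told apart from a change in RNA per cell.

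With TMM scaling, 11 of the 33 genes were higher in HKO livers at an adjusted p under 0.05 (33.3%), against 12.5% of all genes tested, and 1 was lower (3.03%), against 16.5%. The number higher was 4 with upper-quartile scaling, 0 by library size and 0 with ERCC scaling, and the number lower was 1, 3 and 1. Those lower were *Gtpbp3* with the upper quartile, *Gtpbp3*, *Ears2* and *Wars2* by library size, and *Lars2* with ERCC scaling. The 11 with TMM were *Gfm1*, *Nars2*, *Mtif3*, *Twnk*, *Mto1*, *Mtif2*, *Mrrf*, *Gfm2*, *Tufm*, *Tfam* and *Aars2*, and the gene that fell was *Gtpbp3*. Under the looser rule of the study's methods, an unadjusted p under 0.05 with an adjusted p under 0.25, 14 were higher against 19.5% of all genes, and 1 was lower against 21.8%. The HKO values lay wholly above the fl/fl values for 18 genes, against 21.9% of all genes, and wholly below for 3, against 25.0%. The median log2 fold change of the 33 was 0.28, and that of all genes tested was 0.03. Of the 33 estimates, 27 were positive and 6 negative. The plot of log2 fold changes by role shows that initiation, elongation, recycling and genome upkeep each held at least 2 genes that passed, while most synthetases had estimates above 0 that did not.

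**Figure D1:**
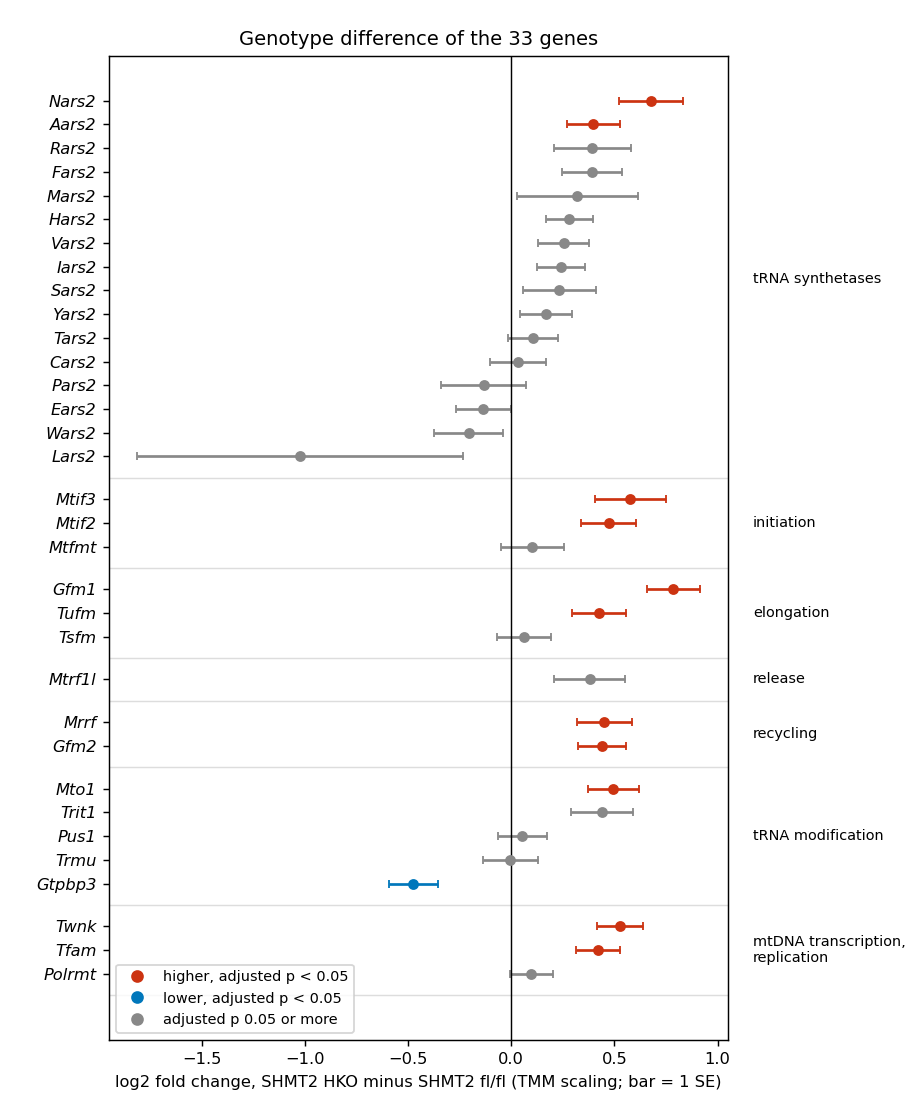
Log2 fold change of each of the 33 genes between SHMT2 HKO and SHMT2 fl/fl livers (x axis, TMM scaling, bar = 1 SE, 3 mice a group), grouped by role on the y axis. Red marks the 11 genes higher and blue the 1 gene lower at an adjusted p under 0.05, and grey the 21 others; *Lars2* has the widest bar.

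The size and sign of the differences depended on the scale of the libraries. Scaling by library size alone shifted the median of all genes by -0.42 on the log2 scale, upper-quartile scaling by -0.09 and scaling to the spiked ERCC RNAs by -0.72, and the median of the 33 moved with it, to -0.14, 0.19 and -0.44. Since a scaling adds close to a constant to every gene, the distance between these medians is nearly fixed by construction. The median of the 33 minus that of all genes was 0.25 with TMM, 0.25 with the upper quartile, 0.26 by library size and 0.25 with ERCC. Estimates above the all-gene median were found for 27 of the 33 genes under the first 3 scalings and for 26 under ERCC, whereas estimates above 0 numbered 27 with TMM, 24 with the upper quartile, 9 by library size and 1 with ERCC. *Gfm1* alone stayed above 0 in all 15 alternative analyses, and *Gtpbp3*, *Ears2*, *Pars2* and *Wars2* stayed below 0 in all 15. Over all genes, calls split into 2012 higher and 2651 lower with TMM, 1461 and 3039 with the upper quartile, 539 and 4923 by library size, and 107 and 2759 with ERCC. ERCC reads made up 1.58% ± 0.228 of counts in fl/fl and 2.14% ± 0.718 in HKO livers (SD, n = 3, exact permutation test p = 0.4, two-sided, where 0.1 is the smallest this design allows).

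**Figure D2:**
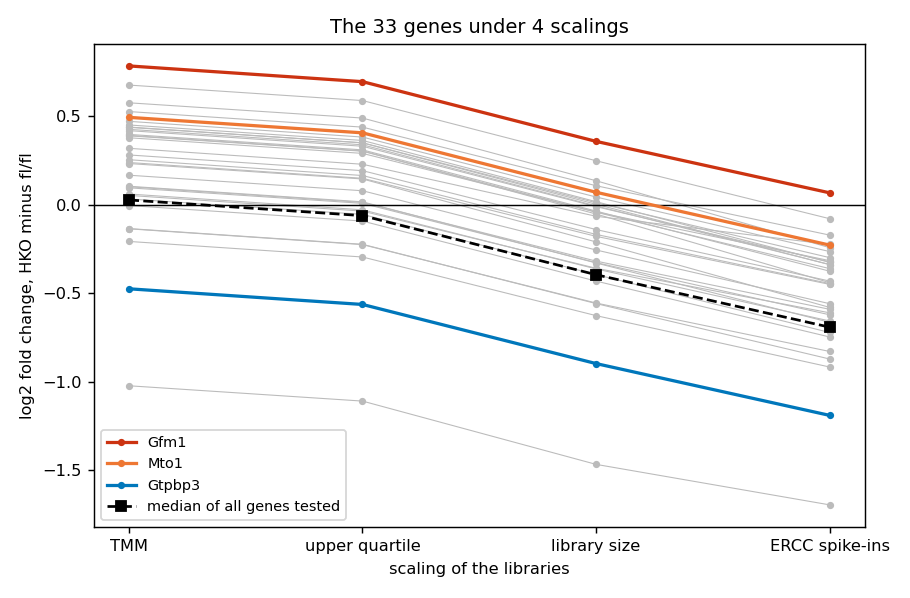
Log2 fold change (y axis, HKO minus fl/fl) of the 33 genes under 4 scalings of the libraries (x axis). *Gfm1* is in red, *Mto1* in orange, *Gtpbp3* in blue and the other genes in grey. The dashed line is the median of all 16089 genes tested. Estimates above 0 numbered 27, 24, 9 and 1 under TMM, upper quartile, library size and ERCC. The median of the 33 is not drawn. Its distance from the all-gene median, which a scaling leaves nearly fixed by construction, was 0.25 to 0.26.

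Many of the calls were lost when a mouse other than HKO mouse 3 was left out. Each such fit has fewer libraries, and the part of this in the lost calls was not tested. Leaving out fl/fl mouse 1, 2 or 3 left 3, 2 and 2 of the genes higher and 0 lower, with edgeR on the remaining 5 libraries. Leaving out HKO mouse 1 left 6 higher and 1 lower, HKO mouse 2 left 4 higher and 0 lower, and HKO mouse 3 gave 14 higher and 1 lower, the additions being *Fars2*, *Rars2* and *Trit1*. Calls over all genes moved too, from 2012 higher to 936, 861 and 805 without fl/fl mouse 1, 2 or 3, and to 1973, 1129 and 2521 without HKO mouse 1, 2 or 3. The median log2 fold change over these 6 fits stayed at 0.24 to 0.31. Only *Gfm1* and *Twnk* passed in all 6. Counted per mouse without *Lars2*, which is described apart, the other 32 genes together reached 777, 772 and 824 CPM in the fl/fl mice and 1031, 1043 and 954 CPM in the HKO mice, a 1.28-fold difference of the means (791 ± 28.5 against 1009 ± 48.0, SD, n = 3). HKO mouse 3 was the lowest of its group and still lay above every fl/fl mouse with TMM scaling.

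**Figure D3:**
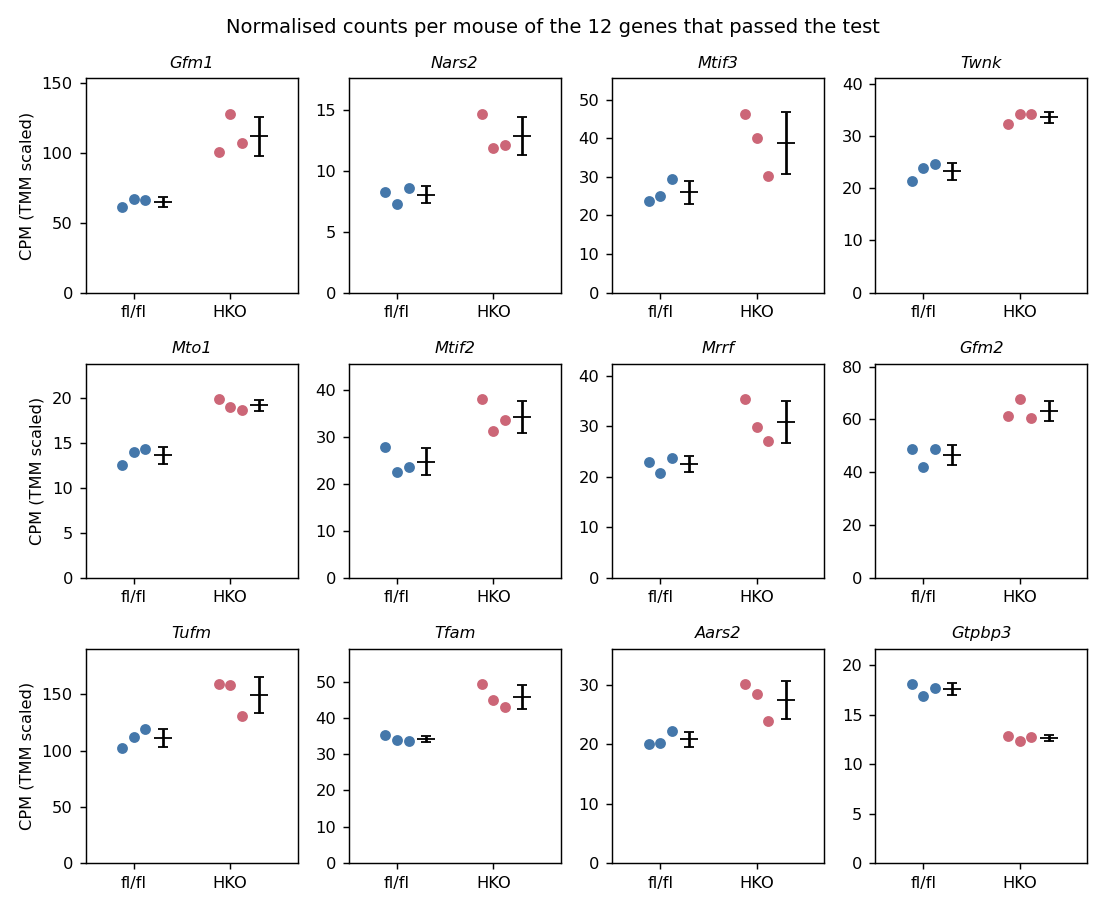
TMM-scaled CPM (y axis, from 0) in each mouse for the 12 genes that passed the test, fl/fl in blue and HKO in red, with the mean and SD of each group beside the points (n = 3). In all 12 panels the groups do not overlap; *Gtpbp3* is the only one with the HKO mice below, and *Mtif3* has the smallest gap between the groups, 29.3 to 30.1 CPM.

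Elongation factors held the gene with the highest mean level per kilobase of exon and the most raised of the genes. *Gfm1* encodes mitochondrial elongation factor G1, the GTPase that moves the ribosome along by a codon, and lies on chromosome 3 (67430096-67476529, plus strand, GRCm38). Its level was 61.2, 67.4 and 66.2 CPM in the fl/fl mice and 101, 128 and 107 CPM in the HKO mice. Every HKO mouse was well above every control, and the difference was 0.79 (log2, SE 0.13, 1.72-fold, adjusted p = 0.00409 by edgeR). With library-size scaling the estimate was 0.36 (adjusted p = 0.0702) and with ERCC scaling 0.07 (adjusted p = 0.919). *Tufm* (chromosome 7, 126487361-126490731, plus strand) encodes the elongation factor that delivers charged tRNA to the ribosome. It read 103, 112 and 119 CPM in fl/fl livers and 159, 159 and 131 CPM in HKO livers. The groups did not overlap, HKO mouse 3 came nearest to the controls, and the difference was 0.43 (SE 0.13, adjusted p = 0.0416). The *Tufm* call was lost without fl/fl mouse 1, 2 or 3 and without HKO mouse 1 or 2, at adjusted p from 0.0783 to 0.144. Of the 50-base stretches of *Tufm* transcripts, 54.5% also occur in the processed pseudogene *Gm9755*. That pseudogene had only 17 to 36 counts in a library, against 4197 for *Tufm* in fl/fl mouse 1. Reads that match both were not counted, and these counts do not show how many *Tufm* lost. *Tsfm*, whose protein recycles the TUFM factor to its active form, stood at 20.7, 17.1 and 20.1 CPM against 18.7, 21.6 and 20.3 CPM. Its groups overlapped, with a difference of 0.06 (SE 0.13, adjusted p = 0.753). Per kilobase of exon, *Tufm* had the highest mean of the 33 genes in fl/fl livers at 52.3 CPM per kb. It was followed by *Lars2* at 49.5, *Gfm1* at 14.7 and *Pus1* at 12.4, and the other 29 were under 10 CPM per kb. The *Lars2* mean rests on fl/fl mouse 2, with 124, 1222 and 300 CPM in fl/fl mice 1, 2 and 3. Its place in this order, also relative to *Tufm*, therefore depends on the mouse.

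Promoter sequences are shown for *Gfm1*, which rose the most, and for *Tufm*, whose window holds the same motif at nearly the same place. They are also shown for *Mto1* and *Gtpbp3*, partner enzymes that moved in opposite directions with TMM scaling. Each is 300 bases of RefSeq sequence (GRCm38.p6), 250 before and 50 from the annotated start onward, written 5′ to 3′ on the plus strand on which all 4 genes lie: *Gfm1* at chr3:67429865-67430164, *Tufm* at chr7:126487105-126487404, *Mto1* at chr9:78447960-78448259 and *Gtpbp3* at chr8:71488478-71488777. Capitals mark the letters CCGGAAGT, known as an ETS motif, in *Gfm1* and *Tufm*, and AAGATGGC, known as a YY1 motif, in *Mto1*. The *Gtpbp3* window, set by a RefSeq start that lies inside the gene's annotated span, held none of the motifs searched.
Gfm1: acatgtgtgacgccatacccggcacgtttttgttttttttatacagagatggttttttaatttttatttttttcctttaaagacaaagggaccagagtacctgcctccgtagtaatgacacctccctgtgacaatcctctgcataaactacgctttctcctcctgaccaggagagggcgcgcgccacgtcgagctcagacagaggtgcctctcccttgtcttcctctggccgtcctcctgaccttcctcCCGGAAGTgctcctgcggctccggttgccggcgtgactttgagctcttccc
Tufm: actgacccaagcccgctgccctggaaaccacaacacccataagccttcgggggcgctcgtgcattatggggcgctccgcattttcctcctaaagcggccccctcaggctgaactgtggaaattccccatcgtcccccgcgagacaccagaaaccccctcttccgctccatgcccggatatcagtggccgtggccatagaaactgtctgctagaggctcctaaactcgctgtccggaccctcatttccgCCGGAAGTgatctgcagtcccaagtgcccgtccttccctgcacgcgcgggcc
Mto1: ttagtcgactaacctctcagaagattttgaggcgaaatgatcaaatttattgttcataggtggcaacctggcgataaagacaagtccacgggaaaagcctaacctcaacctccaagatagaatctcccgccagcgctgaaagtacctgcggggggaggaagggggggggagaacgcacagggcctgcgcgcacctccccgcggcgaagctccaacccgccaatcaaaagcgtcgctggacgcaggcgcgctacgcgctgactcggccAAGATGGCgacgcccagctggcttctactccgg
Gtpbp3: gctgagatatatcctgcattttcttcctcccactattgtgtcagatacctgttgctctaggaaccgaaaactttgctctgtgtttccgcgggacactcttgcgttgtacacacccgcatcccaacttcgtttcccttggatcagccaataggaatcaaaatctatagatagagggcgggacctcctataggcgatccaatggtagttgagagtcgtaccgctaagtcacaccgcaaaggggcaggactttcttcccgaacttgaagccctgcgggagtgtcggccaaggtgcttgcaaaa

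The ETS letters began 1 base before the start in *Gfm1* and 2 bases before it in *Tufm*, and the YY1 letters began 17 bases after the start in *Mto1*. RefSeq promoters were matched for 30 of the 33 genes, all except *Mtif3*, *Pars2* and *Hars2*, and were searched on both strands. CCGGAAGT was found for 6 of the 30 (*Gfm1*, *Rars2*, *Tfam*, *Trmu*, *Tufm* and *Twnk*), or 20%, against 3.89% of all 32851 promoters and 8.22% of the 11685 tested genes with a promoter. In *Twnk* the match was at the downstream of its annotated starts. Of these 6, 4 were among the 10 matched genes that rose. AAGATGGC was found for 5 of the 30 (*Aars2*, *Mto1*, *Trit1*, *Wars2* and *Yars2*), or 16.7%, against 2.75% and 4.81%, and 2 of the 5 were among those that rose. The NRF1 letters GCGCATGCG were found for 3 (*Mtfmt*, *Vars2* and *Wars2*), or 10%, against 1.75% and 3.68%, and none of these rose by edgeR. TGATGCAA, a composite of ATF4 and C/EBP, was found for 0 of the 30, against 0.895% and 0.813%. None of the 4 motifs contains another, and a match or its absence describes only the letters in these windows.

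Both mitochondrial initiation factors were higher in HKO livers with TMM scaling, whereas the formyltransferase that prepares the initiator tRNA did not pass. *Mtif2* (chromosome 11, 29526408-29545279, plus strand) encodes the factor that places the initiator tRNA on the small subunit. Its level was 27.9, 22.5 and 23.5 CPM in fl/fl and 37.9, 31.1 and 33.5 CPM in HKO mice. The lowest HKO mouse was above the highest control, and the difference was 0.47 (SE 0.13, adjusted p = 0.0307). Without fl/fl mouse 2, fl/fl mouse 3 or HKO mouse 1 the adjusted p became 0.116, 0.117 and 0.0643. *Mtif3* (chromosome 5, 146951573-146963800, minus strand), whose product keeps the ribosomal subunits apart before initiation, read 23.7, 24.9 and 29.3 CPM against 46.2, 40.0 and 30.1 CPM. HKO mouse 3 lay just above fl/fl mouse 3, and HKO mouse 1 was the highest. The difference was 0.58 (SE 0.17, adjusted p = 0.0375), and it did not pass without fl/fl mouse 1, 2 or 3 or HKO mouse 1 or 2 (adjusted p 0.0652 to 0.129). *Gtf3a*, a neighbour on the other strand that covers 29.4% of the *Mtif3* exons, differed by 0.09 (adjusted p = 0.714), and reads from the overlap cannot be assigned without strand. *Mtfmt*, which formylates the initiator methionyl-tRNA with a folate-borne formyl group, was at 14.0, 13.7 and 11.7 CPM in fl/fl and 15.4, 12 and 14.9 CPM in HKO livers. The groups overlapped, with a difference of 0.10 (SE 0.15, adjusted p = 0.652). Within a mouse, where no scaling enters, the ratio of *Mtif2* to *Mtfmt* counts went from 1.88 ± 0.206 to 2.44 ± 0.176 (SD, n = 3) without overlap. That of *Mtif2* to *Mtif3* went from 0.961 ± 0.195 to 0.904 ± 0.183 with overlap. The ratios here and below were chosen after the values were seen and carry no test. A shift between a gene that passed and one that did not, such as *Mtif2* and *Mtfmt*, restates their separate differences.

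Both recycling factors, which split the ribosome after a protein is finished, were higher with TMM scaling. *Mrrf* (chromosome 2, 36136389-36190647, plus strand), the ribosome recycling factor, read 23, 20.8 and 23.8 CPM in fl/fl and 35.4, 29.9 and 27.2 CPM in HKO mice. *Gfm2* (chromosome 13, 97137937-97181195, plus strand), the elongation factor G2 that works with it, read 48.7, 42.0 and 49.0 CPM against 61.5, 67.7 and 60.4 CPM. Neither gene had overlapping groups. The differences were 0.45 (SE 0.13, adjusted p = 0.0362) for *Mrrf* and 0.44 (SE 0.12, adjusted p = 0.024) for *Gfm2*. The *Gfm2* to *Mrrf* ratio of counts was 2.06 ± 0.0518 in fl/fl and 2.07 ± 0.293 in HKO livers, and the groups overlapped. The *Mrrf* call was lost without fl/fl mouse 1, 2 or 3 or HKO mouse 1 or 2 (adjusted p 0.0769 to 0.131), and the *Gfm2* call without fl/fl mouse 1, 2 or 3 or HKO mouse 2 (0.0615 to 0.102). The ratio of *Gfm1* counts to those of its paralog *Gfm2* within a mouse went from 1.40 ± 0.181 to 1.77 ± 0.126, and its ratio to *Tufm* from 0.585 ± 0.0248 to 0.753 ± 0.104, both without overlap. *Mtrf1l*, the release factor that reads stop codons, was low at 4.92, 5.94 and 5.58 CPM in fl/fl and 6.49, 7.65 and 7.24 CPM in HKO mice. All 3 HKO mice were above the controls, but the difference of 0.38 (SE 0.17) had an adjusted p of 0.138.

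The tRNA-modifying enzymes split. *Mto1* and *Gtpbp3* encode the partner enzymes that together build the taurine-containing wobble uridine of mitochondrial tRNAs, a reaction that takes its carbon from mitochondrial folate. *Mto1* (chromosome 9, 78448208-78475348, plus strand) was at 12.5, 14.0 and 14.4 CPM in fl/fl and 19.9, 19.1 and 18.7 CPM in HKO mice. *Gtpbp3* (chromosome 8, 71488103-71499583, plus strand) was at 18.1, 16.9 and 17.7 CPM in fl/fl and 12.9, 12.3 and 12.8 CPM in HKO mice. The replicates were tight and the groups did not overlap for either gene, with *Mto1* higher and *Gtpbp3* lower in every HKO mouse. *Mto1* rose by 0.49 (SE 0.12, adjusted p = 0.0192) with TMM, an estimate that was -0.23 with ERCC scaling (adjusted p = 0.752), and *Gtpbp3* fell by 0.48 (SE 0.12, adjusted p = 0.02), or to 0.719 of its control level. With library-size scaling *Gtpbp3* differed by -0.90 (adjusted p = 0.00503) and with ERCC by -1.19 (adjusted p = 0.118). Leaving out fl/fl mouse 1, 2 or 3 or HKO mouse 2 took the adjusted p to 0.0512 to 0.0759 for *Mto1* and to 0.0573 to 0.0839 for *Gtpbp3*.

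Set against each other within each mouse, the ratio of *Mto1* to *Gtpbp3* counts needs no scaling. It was 0.694, 0.829 and 0.812 in the fl/fl mice and 1.55, 1.55 and 1.47 in the HKO mice, so that *Gtpbp3* had the more counts in every control and *Mto1* in every HKO liver. The means were 0.778 ± 0.0732 and 1.52 ± 0.0483 (SD, n = 3), a 1.96-fold shift. This pair and the other ratios were chosen after the values were seen and carry no test. *Trmu*, which puts sulfur on the same wobble base, was at 11.4, 11.6 and 12.7 CPM in fl/fl and 12.4, 12.1 and 11.1 CPM in HKO livers. Its groups overlapped with a difference of -0.00 (SE 0.13, adjusted p = 0.986), and its ratio to *Mto1* went from 0.873 ± 0.0440 to 0.617 ± 0.0194 without overlap. *Pus1*, the pseudouridine synthase that is also used outside mitochondria, was the most abundant of the modifying enzymes per kb (12.4 CPM per kb in fl/fl) and read 26.3, 26.7 and 28.2 CPM against 25.6, 27.4 and 31.2 CPM. The groups overlapped, with a difference of 0.05 (SE 0.12, adjusted p = 0.765). *Trit1*, which adds an isopentenyl group beside the anticodon, read 15.2, 13.7 and 13.9 CPM against 23.1, 17.8 and 17.1 CPM. The groups did not overlap, and the difference of 0.44 (SE 0.15) had an adjusted p of 0.0604 by edgeR and 0.0382 by DESeq2.

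**Figure D4:**
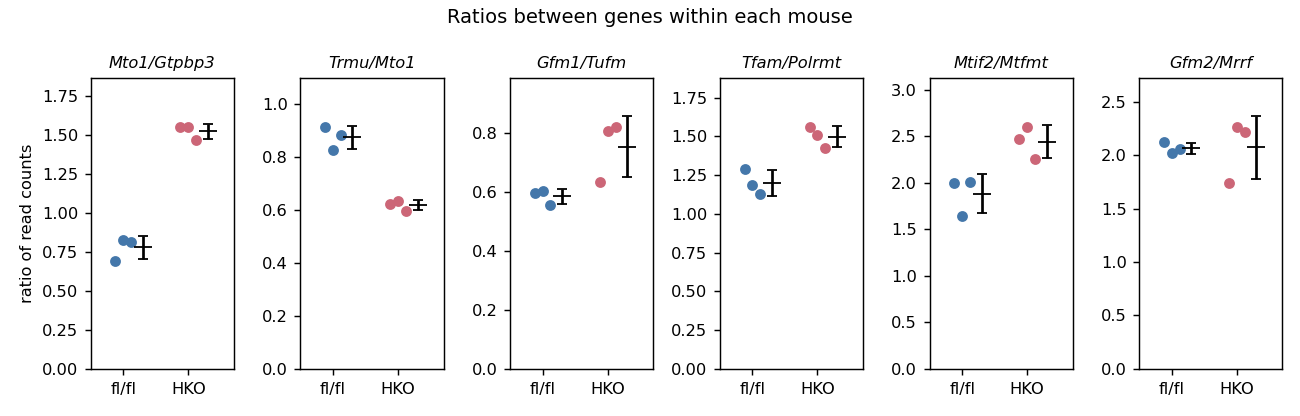
Ratio of read counts (y axis, from 0) between pairs of the genes within each mouse, fl/fl in blue and HKO in red, with mean and SD (n = 3). *Mto1*/*Gtpbp3* goes from 0.694-0.829 to 1.47-1.55, *Trmu*/*Mto1* is lower in all 3 HKO mice, and *Gfm2*/*Mrrf* overlaps between the groups.

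Genes for the mitochondrial genome were raised in part, with TMM scaling. *Twnk* (chromosome 19, 45005663-45012762, plus strand) encodes the Twinkle helicase that unwinds mitochondrial DNA for copying. It was at 21.5, 23.8 and 24.6 CPM in fl/fl and 32.3, 34.1 and 34.2 CPM in HKO mice. The HKO mice were close together and all above the controls, with a difference of 0.53 (SE 0.11, adjusted p = 0.00999). *Mrpl43*, on the other strand, covers 12.6% of the *Twnk* exons and differed by 0.40 (adjusted p = 0.0636). *Tfam* (chromosome 10, 71225464-71238280, minus strand), which packages mitochondrial DNA and opens its promoters, read 35.2, 33.8 and 33.6 CPM against 49.2, 45.0 and 43.0 CPM. Again no HKO mouse reached down to the controls, and the difference was 0.42 (SE 0.11, adjusted p = 0.0212). The *Tfam* call was lost without fl/fl mouse 1, 2 or 3 or HKO mouse 2 (adjusted p 0.0525 to 0.0921). *Polrmt*, the mitochondrial RNA polymerase, stood at 27.3, 28.5 and 29.8 CPM against 31.5, 29.8 and 30.2 CPM. Those groups met at fl/fl mouse 3 and HKO mouse 2, and the difference was 0.10 (SE 0.10, adjusted p = 0.529). Within a mouse, *Tfam* per *Polrmt* went from 1.2 ± 0.0837 to 1.5 ± 0.0684 and *Twnk* per *Polrmt* from 0.815 ± 0.0248 to 1.10 ± 0.0663 (SD, n = 3), both without overlap.

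Of the 16 synthetases, 2 rose with TMM scaling, or 12.5%, the same share as among all genes tested, and none fell by edgeR at an adjusted p under 0.05, while 4 were higher under the looser rule. None of the 16 was lower under the looser rule either. The median difference of the 16 was 0.24. *Nars2*, the asparaginyl-tRNA synthetase (chromosome 7, 96951505-97064758, plus strand), was low, at 8.27, 7.30 and 8.61 CPM in fl/fl and 14.7, 11.9 and 12.1 CPM in HKO mice. Each HKO mouse exceeded the controls. The increase of 0.68 (SE 0.16, 1.60-fold, adjusted p = 0.0147) came second only to that of *Gfm1* among the 33. Leaving out fl/fl mouse 1, 2 or 3 moved its adjusted p to 0.0502, 0.0620 and 0.05002, the last just over the threshold. *Aars2*, the alanyl-tRNA synthetase (chromosome 17, 45506841-45520843, plus strand), read 20.1, 20.2 and 22.3 CPM against 30.1, 28.5 and 24.0 CPM. HKO mouse 3 was the closest to the controls but did not reach them. The difference of 0.40 (SE 0.13) was just inside the threshold (adjusted p = 0.0491), and *Aars2* passed in only 3 of 15 alternatives. It did not pass without fl/fl mouse 1, 2 or 3 or HKO mouse 1 or 2 (adjusted p 0.1 to 0.15), nor by limma-voom, the other scalings, the other filters or the replicate block (0.053 to 0.848).

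Among the other synthetases, *Fars2* for phenylalanine was at 25.5, 34.1 and 30.8 CPM in fl/fl and 42.0, 41.9 and 34.5 CPM in HKO livers, a difference of 0.39 (SE 0.15, adjusted p = 0.0769). *Hars2* for histidine was at 26.0, 22.0 and 24.8 CPM against 30.0, 28.3 and 30.3 CPM, a difference of 0.28 (SE 0.11, adjusted p = 0.0995). In both genes the groups did not overlap. *Iars2* for isoleucine, *Vars2* for valine and *Yars2* for tyrosine also had every HKO mouse above the controls, with differences of 0.24, 0.26 and 0.17 and adjusted p of 0.158, 0.159 and 0.356. *Rars2* for arginine and *Sars2* for serine overlapped through HKO mouse 3 alone: *Rars2* read 18.0, 17.8 and 12 CPM in HKO mice against 10.8 to 13.3 CPM in controls, and *Sars2* read 16, 15.7 and 10.8 CPM against 11.2 to 12.5 CPM. Their differences were 0.39 (adjusted p = 0.149) and 0.23 (adjusted p = 0.36), and without that mouse *Rars2* passed at 0.54 (adjusted p = 0.024). *Mars2* for methionine was the least abundant of the 33 per kb, at 0.346 CPM per kb. It was highest in HKO mouse 3, with 7.16 CPM against 3.49 to 4.28 CPM in the other 5 mice. Its groups overlapped, with a difference of 0.32 (SE 0.29, adjusted p = 0.452). *Tars2* and *Cars2*, for threonine and cysteine, differed by 0.10 and 0.03 with overlapping groups. *Ears2* for glutamate (11.9, 11.3 and 11.5 CPM against 9.72, 10.8 and 11 CPM) and *Wars2* for tryptophan (5.8, 5.98 and 6.50 CPM against 5.22, 5.22 and 5.39 CPM) were the synthetases with every HKO mouse below the controls. Their differences were -0.14 (adjusted p = 0.488) and -0.21 (adjusted p = 0.392), and that of *Pars2* for proline, which overlapped, was -0.13 (adjusted p = 0.662).

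*Lars2*, the leucyl-tRNA synthetase, had the largest SE of the 33 genes, 0.79 against at most 0.29 for the others. Its level was 124, 1222 and 300 CPM in the fl/fl mice and 195, 428 and 186 CPM in the HKO mice, from 5058, 32475 and 11502 counts and 4601, 8457 and 4717 counts. The groups overlapped, and fl/fl mouse 2 had a far higher CPM than fl/fl mouse 1. In both genotypes the mouse numbered 2 was the highest. The difference was -1.02 (adjusted p = 0.375), and without fl/fl mouse 2 it was 0.35 (adjusted p = 0.686). With ERCC scaling it was -1.70 (adjusted p = 0.00176). Because of this spread the summed levels over synthetases were also computed over the other 15, which gave 283, 277 and 301 CPM in fl/fl and 343, 349 and 325 CPM in HKO mice, 1.18-fold between the means.

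Cytosolic tRNA synthetases charge the tRNAs used outside the mitochondria, and 18 of them were set beside the mitochondrial enzymes. With TMM scaling 4 were higher (22.2%, against 12.5% of all genes tested), among them *Aars1*, *Tars1* and *Farsb*. The 1 lower was *Vars1* (5.56%, against 16.5%), and the median was 0.10. Counted either way, 5 of the 18 passed, where 29.0% of all genes tested did. The count of 5 that passed became 3, 1 and 2 without fl/fl mouse 1, 2 or 3, and 1 without HKO mouse 2. Alanine was the only amino acid with both enzymes higher, *Aars2* at 0.40 and *Aars1* at 0.58 (SE 0.14, adjusted p = 0.0206). *Nars2* had a difference of 0.68 where cytosolic *Nars1* had 0.25 (SE 0.14, adjusted p = 0.209), and *Tars2* had 0.10 where *Tars1* had 0.47 (SE 0.13, adjusted p = 0.0294). For valine the estimates had opposite signs, 0.26 (SE 0.12, adjusted p = 0.159) for *Vars2* and -0.82 (SE 0.12, adjusted p = 0.00291) for *Vars1*. No test was made between the enzymes of a pair. Counted within each mouse, the 15 mitochondrial synthetases other than *Lars2* held 0.25 ± 0.00789 counts per count of the 18 cytosolic genes in fl/fl and 0.263 ± 0.0102 in HKO livers (SD, n = 3), with overlap.

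**Figure D5:**
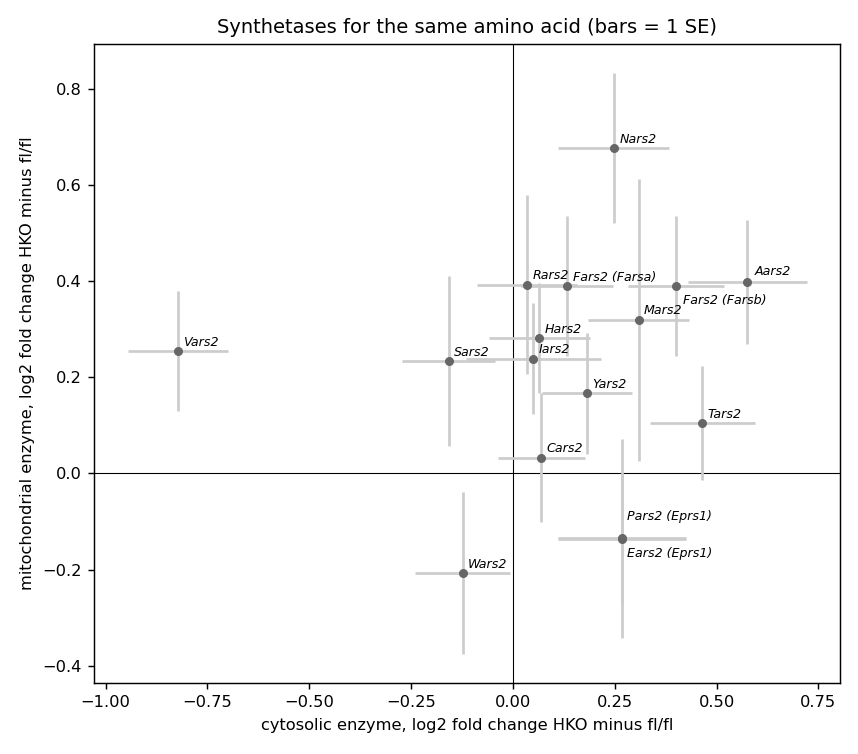
Log2 fold change (HKO minus fl/fl, TMM scaling, bars = 1 SE) of each mitochondrial synthetase (y axis) against the cytosolic enzyme for the same amino acid (x axis); *Lars2* (-1.02, SE 0.79) is left out for scale, *Fars2* appears against both cytosolic subunits, and *Ears2* and *Pars2* share *Eprs1*. *Aars2* and *Aars1* lie high together at 0.40 and 0.58, and *Vars2* and *Vars1* lie on opposite sides of 0 at 0.26 and -0.82.

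The other nuclear genes of mitochondrial gene expression, a list of 85, had 14 higher (16.5%, against 12.5% of all genes) and 0 lower by edgeR with TMM scaling, and 25 higher (29.4%, against 19.5%) and 0 lower under the looser rule, with a median of 0.23. The count of 14 was 2, 5 and 3 without fl/fl mouse 1, 2 or 3, 5 without HKO mouse 2 and 24 without HKO mouse 3. By role, 3 of 6 genes for tRNA charging passed, 3 of 17 for tRNA processing, 3 of 9 for translation and release, 3 of 13 for RNA stability and 2 of 19 for transcription and upkeep of the genome. Of 21 genes for rRNA modification and ribosome assembly, 0 passed in edgeR and 4 were higher under the looser rule. *Hsd17b10*, a subunit of the RNase that frees mitochondrial tRNAs and also a dehydrogenase of isoleucine breakdown, moved the most, from 110 ± 15.3 to 276 ± 111 CPM (1.33, SE 0.30, adjusted p = 0.0149). *Gatb*, a subunit of the amidotransferase that makes mitochondrial glutaminyl-tRNA from the product of EARS2, rose by 0.75 (SE 0.13, adjusted p = 0.00492). *Rmnd1* rose by 0.59, *Lrpprc*, which steadies mitochondrial mRNAs, by 0.58, and *Tfb2m*, the partner of TFAM and POLRMT at mitochondrial promoters, by 0.55 (adjusted p 0.0167, 0.00826 and 0.0217).

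The machinery was also set beside what it serves and what it works with. The 13 mRNAs of the mitochondrial genome made up 3.10% ± 0.161 of gene counts in fl/fl and 4.25% ± 0.319 in HKO livers (SD, n = 3), with no overlap (exact permutation test p = 0.1, two-sided, the smallest this design allows). All 13 (100%, against 12.5% of all genes tested) were higher by edgeR with TMM scaling, with a median log2 fold change of 1.11. That median depends on the scaling. Library-size and ERCC scaling moved the median of all genes by -0.42 and -0.72, and values of these mRNAs under them are not given here. Per 1000 counts of these mRNAs, the 32 genes other than *Lars2* held 29.3, 27.9 and 31.8 counts in the fl/fl mice and 19.9, 18.2 and 23.7 counts in the HKO mice. Every HKO mouse was below every control in this ratio, which needs no scaling. Of 79 mitochondrial ribosomal protein genes, 12 were higher (15.2%, near the 12.5% of all genes) and 0 lower by edgeR with TMM scaling, and 33 were higher (41.8%, against 19.5%) and 0 lower under the looser rule, with a median of 0.35. That count of 12 was 0, 1 and 0 without fl/fl mouse 1, 2 or 3, 6 and 2 without HKO mouse 1 or 2, and 54 without HKO mouse 3. The 32 genes held 0.298 ± 0.0128 counts per ribosomal protein count in fl/fl and 0.300 ± 0.0393 in HKO livers (SD, n = 3), and the groups overlapped.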

How the data were processed

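Total RNA from 6 livers was sequenced with paired Illumina reads after a library kit that does not mark strand. Per the labels and the study's methods, the authors trimmed reads with Trimmomatic 0.36, aligned them with STAR 2.5.2b to GRCm38 with ERCC sequences and counted unique gene hits with featureCounts (Subread 1.5.2). Whether strand was used is not given in the sources used here. The authors deposited raw counts for 49671 genes and 92 ERCC sequences. Multi-mapped reads were not counted, so genes with close copies are undercounted. Counts without a gene symbol made up 0.0416% and were kept.

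Counts were tested with edgeR 4.0.16 (R 4.3.3; filterByExpr, TMM, robust quasi-likelihood F test, KO against WT, no covariate) over 16089 genes, and p-values were adjusted by the Benjamini-Hochberg method over all of them. SE is the absolute log2 fold change divided by the square root of F. CPM used TMM-scaled library sizes, and CPM per kb the union of exons (GENCODE M21). Depth was such that 3 counts were 0.0734 to 0.152 CPM. Replicates of a group differed by more than sampling noise and were kept as separate samples. The alternatives were DESeq2 1.42.0, limma-voom (limma 3.58.1), 3 other scalings, 2 other filters, non-robust dispersions, a replicate block and leaving out each mouse. The scripts were run on simulated data with 200 changed genes, as many higher as lower, and changes of up to 4-fold. Those changes were fewer than the calls here and larger than any among the 33 genes that passed. The run therefore does not show how well differences of this size, or an imbalance of higher and lower genes, are handled. Described in full were all genes that passed, with the most abundant gene of each role. From the list of 85, the 5 largest changes among genes that passed were named. The genes, lists and tests were chosen with earlier results of these data known.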

Additional observations from a re-analysis of the deposited data

How the results depend on the processing

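Of 495 log2 fold changes of single genes under alternatives, 355 kept their direction and side of the threshold, 75 kept their direction but lost a call, 7 gained one and 58 changed sign, 13 of these with a lost call, so that 88 lost one in all. The number higher (11) was 0 by library size, 4 by upper quartile, 0 by ERCC, 6 without a filter and 5 with the replicate block, and 2 to 14 leaving out a mouse. The number lower (1) was 3 by library size, 0 with the block and 0 to 1 leaving out a mouse. The median (0.28) was -0.14 by library size, 0.19 by upper quartile and -0.44 by ERCC. Genes with HKO above (18) numbered 1 by library size and 0 by ERCC, and those with HKO below (3) 10 and 1. The wider list (14) gave 9 by library size, 9 by upper quartile, 0 by ERCC, 9 without a filter, 7 with the block and 2 to 24 leaving out a mouse. Cytosolic synthetases (5) gave 3, 1, 3 and 2 by upper quartile, by ERCC, without a filter and with the block, and 1 to 4 leaving out a mouse. Mitochondrial ribosomal proteins (12) gave 24 by DESeq2, 2 by library size, 5 by upper quartile, 0 by ERCC, 7 with the block and 0 to 54 leaving out a mouse. Same-numbered mice did not deviate together (r of -0.0459, 0.0125 and -0.0766 across genes), and not every sample correlated best with its own number, so the numbers were not taken to pair them. Signs turned by library size for *Aars2* -0.036, *Cars2* -0.39, *Fars2* -0.042, *Hars2* -0.14, *Iars2* -0.18, *Mars2* -0.065, *Rars2* -0.052, *Sars2* -0.21, *Tars2* -0.33, *Vars2* -0.17, *Yars2* -0.26, *Tufm* -0.0063, *Tsfm* -0.36, *Mtfmt* -0.32, *Mtrf1l* -0.041, *Pus1* -0.36, *Tfam* -0.010 and *Polrmt* -0.33. By ERCC they turned for *Aars2* -0.38, *Cars2* -0.72, *Fars2* -0.36, *Hars2* -0.43, *Iars2* -0.45, *Mars2* -0.22, *Nars2* -0.078, *Rars2* -0.44, *Sars2* -0.58, *Tars2* -0.66, *Vars2* -0.45, *Yars2* -0.56, *Tufm* -0.34, *Tsfm* -0.66, *Gfm2* -0.30, *Mrrf* -0.33, *Mtif2* -0.26, *Mtif3* -0.24, *Mtfmt* -0.59, *Mtrf1l* -0.32, *Mto1* -0.23, *Pus1* -0.61, *Trit1* -0.34, *Tfam* -0.32, *Polrmt* -0.62 and *Twnk* -0.17. By upper quartile they turned for *Cars2* -0.054, *Tsfm* -0.028 and *Pus1* -0.036. DESeq2 gave *Trmu* 0.0062 and a minimum of 10 counts *Cars2* -0.0081. Leaving out a mouse spread *Cars2* over -0.057 to 0.11, *Lars2* over -1.52 to 0.35, *Mars2* over -0.095 to 0.51, *Tsfm* over -0.019 to 0.12, *Trmu* over -0.032 to 0.044 and *Pus1* over -0.052 to 0.12. The scalings differ by construction in the level taken as unchanged, which moved all genes together, and the cause of the other changes was not tested. With 3 mice a group, the smallest difference among the 33 genes that passed was 0.40 on the log2 scale.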

Other observations

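Of the 33 genes, 15 have exons that overlap those of another listed gene, and in 4 the overlap exceeds 10 percent of the exonic length. Besides *Mtif3* and *Twnk* these are *Iars2*, with 22.9% under *Rab3gap2* on the other strand (-0.03, adjusted p = 0.911), and *Pus1*, with 23.8% under *Gm26515*, which had 61 counts over the 6 libraries. The exons of *Fars2* share 8.72% of their length with *Nrn1* on the other strand, which differed by 0.76 (adjusted p = 0.00776). *Gfm1* shares 1.43% with *Lxn*, which differed by -1.89 (adjusted p = 0.00456). The part of these neighbours in the counts of the 33 genes was not tested.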
